A study of Homo sapiens with 16 samples.

Results

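The response of AML-193 cells to azacitidine (AZA) was set against that of HNT-34 cells, gene by gene, on 8 of the 16 whole-genome expression arrays of the series. AML-193 is an established human acute myeloid leukaemia (AML) line of monocytic type, and HNT-34 is an established human AML line known for expressing MECOM (EVI1), a transcription factor gene. Each line was given vehicle (DMSO) or 0.5 µM AZA on each of 3 days and was then kept for 4 days in medium without drug, with 2 arrays for each combination of line and arm. All groups, the vehicle groups included, grew in RPMI medium for stable isotope labelling (SILAC) with unlabelled, light lysine and arginine, and the RNA came from frozen cell pellets. The 4 groups were taken by the labels of line and treatment, and the other 8 arrays, of KG1a and HL60, entered the fit to estimate the spread. No label states that the paired arrays are independent cultures. The p-values therefore reflect the spread among these samples alone, and that spread may be technical. All 14038 genes that passed a filter on dim signals were tested. The KG1a and HL60 arrays also counted in that filter and in the choice of each gene's probe set.

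AZA is a cytidine analogue that cells build into RNA and DNA. In DNA it traps DNA methyltransferases, so that methylation is lost as cells divide, and genes silenced by methylation, such as germline genes, can be transcribed. Through its place in RNA and through DNA damage it also affects protein synthesis, stress responses and differentiation, and myeloid leukaemia cells can turn on genes of more mature blood cells after exposure. The measurements were taken days after the drug was removed, so they describe the state reached by then and not the first response.

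The quantity compared is the difference of differences: AZA minus vehicle in AML-193, less AZA minus vehicle in HNT-34, in log2 units of array signal. A positive difference means that the change with AZA was more positive in AML-193, whether the gene rose there or fell in HNT-34. In what follows ± gives the limma standard error, with 2 arrays per group, and a gene was called at a limma p adjusted by Benjamini and Hochberg of at most 0.05. A gene is said to rise or fall in a line where AZA minus vehicle in that line was called. Levels are given as log2 signal of the gene's probe set, and levels of different genes are not compared, since probe sets differ in brightness.

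The lines carried their defining transcripts. PTPRC, which encodes the pan-leukocyte surface protein CD45, had log2 signals of 11.004 and 10.9 on the AML-193 vehicle arrays and 12.9 and 12.98 on those of HNT-34. LYZ, the lysozyme gene of myeloid cells, was at 11.9 and 12.0 in AML-193 and at 6.80 on both arrays in HNT-34. MECOM was at 12.4 on both HNT-34 vehicle arrays and at 4.63 and 4.64 in AML-193, and CD34, a progenitor marker, was at 11.8 and 11.7 against 7.64 and 7.91. CD14, a defining marker of monocytes, lay below the array median of 6.73 in AML-193 with vehicle (5.80 and 5.95). Arrays of a group correlated across probe sets at 0.995 or above in all 4 groups.

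RNA integrity differed between the arms of AML-193. The array carries control probe sets at the 3′ and 5′ ends of ACTB and GAPDH, and their mean log2 signal at 3′ minus 5′ is larger where RNA is degraded. It was 1.59 and 0.939 on the AML-193 vehicle arrays and 0.229 and 0.168 on its AZA arrays. In HNT-34 it was -0.0796 and 0.0730 with vehicle and -0.0921 and -0.111 with AZA. The AML-193 vehicle arrays thus stood above every other array of both lines, and the 2 of them also differed from each other. List counts and the leading results are therefore also given from a fit that holds this signal as a covariate. Every group has its own mean in that fit, so the slope rests only on differences between arrays of one group, of which the AML-193 vehicle pair has the widest. The median standard error of the difference was 0.139 without the covariate and 0.210 with it.

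The responses of the lines differed at 4423 of 14038 genes (31.5%), of which 2187 (15.6%) were higher in AML-193 and 2236 (15.9%) lower. A difference of at least 2-fold was found at 815 genes (5.81%), 394 of them higher and 421 lower in AML-193. Within the lines, 2907 genes rose and 2844 fell in AML-193 (20.7% and 20.3%), and 2165 rose and 2080 fell in HNT-34 (15.4% and 14.8%). Over all genes tested the AZA effects of the lines had a Pearson correlation of 0.214, with standard deviations of 0.424 in AML-193 and 0.442 in HNT-34. Genes are not independent replicates, and the correlation is given as a description without a test. With the covariate 1323 differences were called, 626 higher (4.46%) and 697 lower (4.97%), and 1163 of these were called in the same direction without it. Of the 4423 genes, 4331 kept the sign of their difference with the covariate, and of the 815 with at least a 2-fold difference 590 kept their call.

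**Figure D1:**
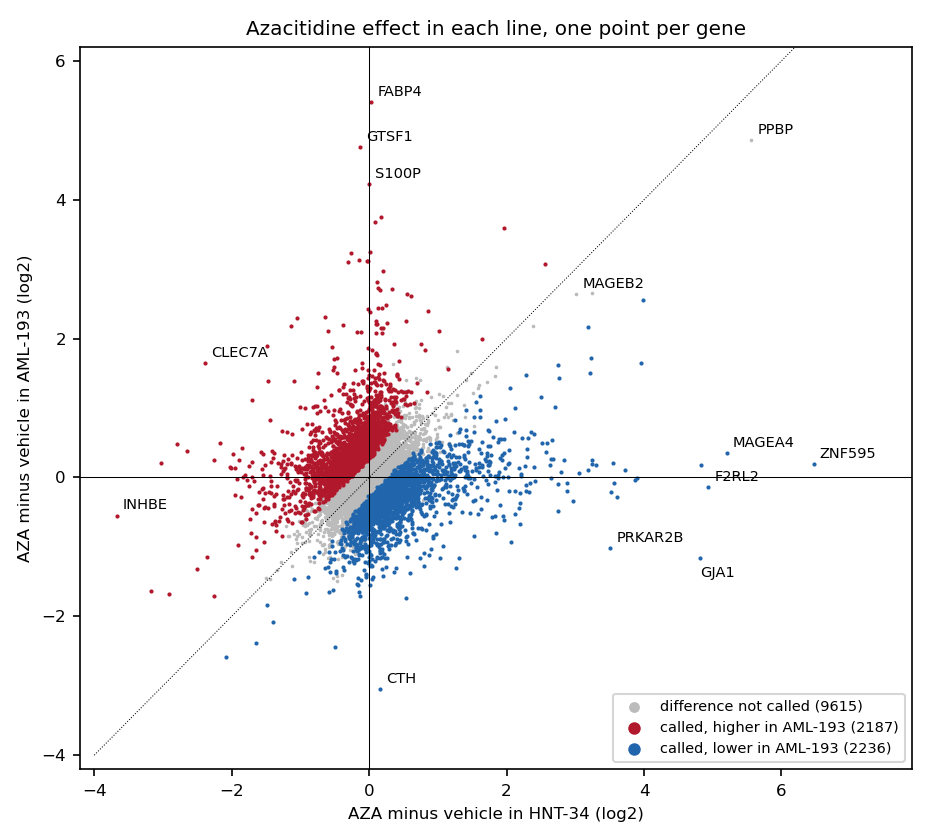
AZA minus vehicle in HNT-34 (horizontal axis, log2) against AML-193 (vertical axis, log2), one point per gene tested, each the difference of 2 AZA and 2 vehicle arrays. Red and blue points are the 2187 and 2236 genes with a called difference, grey points the other genes, and the dotted line marks equal effects. FABP4 and ZNF595 lie along an axis, with the value of one line near 0, and CLEC7A and GJA1 lie off both axes, with values of opposite sign.

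The 2-fold differences were made up of several patterns. Of the 394 higher in AML-193, 156 rose in AML-193 without a call in HNT-34, 78 fell in HNT-34 without a call in AML-193, and 129 rose in AML-193 and fell in HNT-34. Of the 421 lower in AML-193, 162 rose in HNT-34 alone, 80 fell in AML-193 alone, and 135 fell in AML-193 and rose in HNT-34. In 41 of the 421 the gene rose in both lines, and by more in HNT-34. The absence of a call in one line is no test that the gene did not change there, and the difference itself is what was tested.

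The gap in level between the lines was smaller with AZA than with vehicle at 2716 of the 4423 genes (61.4%), a share near the 58.2% of all genes tested. The median absolute gap was 0.740 with vehicle and 0.581 with AZA at the 4423 genes, which were chosen by the difference itself, and 0.421 and 0.360 over all genes tested. Among the 815 genes with at least a 2-fold difference the gap was smaller at 446 and larger at 369, and its median was 1.34 in both arms.

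FABP4, GTSF1 and S100P had the largest called differences toward AML-193. FABP4, a fatty acid binding protein gene of adipocytes and macrophages, had log2 signals of 5.88 and 5.90 with vehicle and 11.2 and 11.4 with AZA in AML-193, and 5.97 and 5.81 with vehicle and 5.82 and 6.03 with AZA in HNT-34. It was bright only on the AML-193 AZA arrays, and its difference was 5.37 ± 0.12 (limma adjusted p = 4.2e-11, and 5.25 with the covariate). GTSF1, which encodes a partner of PIWI proteins in germ cells, was at 5.45 and 5.46 with vehicle and 10.1 and 10.3 with AZA in AML-193. In HNT-34 it was already at 12.8 and 12.96 with vehicle and stayed at 12.7 and 12.8 with AZA. The 4.89 ± 0.14 difference of GTSF1 was thus a rise in AML-193 toward a level that HNT-34 held without drug.

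S100P, a calcium-binding protein gene, showed the same pattern, with 7.33 and 7.05 rising to 11.3 and 11.5 in AML-193 and all 4 HNT-34 arrays at 11.3. Its difference was 4.22 ± 0.13. SPP1, the gene of the secreted protein osteopontin, went from 7.33 and 7.64 to 11.2 and 11.3 in AML-193 and lay between 5.24 and 5.72 on the HNT-34 arrays (difference 3.58 ± 0.22). ELANE, the gene of the granule protease neutrophil elastase, went from 9.46 and 10.01 to 13.4 on both arrays in AML-193, with HNT-34 between 5.35 and 5.94 (3.58 ± 0.32, and 2.91 with the covariate). S100A12, an alarmin gene of monocytes and neutrophils, and MGST1, a glutathione transferase gene, were below the array median in HNT-34 in both arms and rose in AML-193 by 3.23 and 3.11. Their differences were 3.49 ± 0.17 and 3.41 ± 0.34.

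In the other direction, ZNF595, MAGEA4 and F2RL2 were near the floor of the arrays in 3 of the 4 groups and bright in HNT-34 with AZA. ZNF595, a zinc finger gene, had log2 signals of 4.51 and 4.41 with vehicle and 4.85 and 4.46 with AZA in AML-193, and 4.81 and 4.65 with vehicle and 11.2 on both AZA arrays in HNT-34. Its difference of -6.27 ± 0.18 was the largest in size among called genes, and -6.00 with the covariate. MAGEA4, a cancer-testis antigen gene that most adult tissues silence by methylation, was at 4.81 and 4.79, then 4.95 and 5.36 in AML-193. In HNT-34 it was at 4.82 and 4.76 with vehicle and at 10.1 and 9.88 with AZA, a difference of -4.85 ± 0.17. F2RL2, a thrombin receptor family gene of platelets, lay between 4.32 and 4.64 on the AML-193 arrays and went from 4.57 and 4.61 to 9.53 and 9.50 in HNT-34 (-5.07 ± 0.22). Changes that start near the floor are compressed on such arrays.

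SLITRK6, a neuronal transmembrane protein gene, and HGD, the gene of a tyrosine-degrading enzyme, had differences of -4.65 ± 0.19 and -3.91 ± 0.11. EGR3, an immediate early transcription factor gene, went from 6.96 and 6.63 to 10.6 and 10.8 in HNT-34 and lay between 5.52 and 5.84 in AML-193 (-3.91 ± 0.24). LAT, a T cell receptor adaptor that platelets also use, and INHBA, the gene of an activin subunit, rose by 3.61 and 3.52 in HNT-34. Their AZA minus vehicle values in AML-193 were -0.28 and -0.20, and both genes were above the array median there in both arms. The fall of LAT in AML-193 was called (limma adjusted p = 0.016), but not with the covariate (-0.02, limma adjusted p = 0.96). Other probe sets of some of these genes gave smaller values: from -6.27 to -1.46 over the 2 probe sets of ZNF595, -5.07 to -0.84 over the 2 of F2RL2, -3.91 to -0.04 over the 4 of HGD, and 0.17 to 5.37 over the 2 of FABP4. The dimmer probe set gave the smaller value in ZNF595, F2RL2 and FABP4. The range was 1.32 to 3.58 over the 2 probe sets of SPP1 and 0.17 to 3.41 over the 5 of MGST1. None of those of MGST1 had a mean at or above the array median over the arrays of AML-193 and HNT-34. Over the 3 probe sets of INHBA the range was -5.49 to -0.49, so another probe set gave a value larger in size.

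Start-site windows of 4 of these genes are printed to show how many CpG sites, the target of DNA methylation, lie there. Each is the RefSeq window on GRCh38.p14 from 250 bases before to 50 bases after the annotated start, read 5′ to 3′ on the gene's strand, with each CG in capitals. ZNF595 (chr4:53071-53370, plus strand) holds 12 CG pairs, MAGEA4 (chrX:151912224-151912523, plus strand) holds 10, GTSF1 (chr12:54473553-54473852, minus strand) holds 10 and GJA1 (chr6:121435396-121435695, plus strand), described below, holds 3. ZNF595, MAGEA4 and GJA1 rose in HNT-34, and GTSF1 in AML-193.
ZNF595: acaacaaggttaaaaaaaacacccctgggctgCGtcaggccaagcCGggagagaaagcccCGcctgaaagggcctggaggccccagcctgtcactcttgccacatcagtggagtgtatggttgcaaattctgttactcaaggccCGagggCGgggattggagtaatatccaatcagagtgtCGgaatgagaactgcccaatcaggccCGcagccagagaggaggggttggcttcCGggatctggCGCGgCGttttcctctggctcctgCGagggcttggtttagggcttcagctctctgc
MAGEA4: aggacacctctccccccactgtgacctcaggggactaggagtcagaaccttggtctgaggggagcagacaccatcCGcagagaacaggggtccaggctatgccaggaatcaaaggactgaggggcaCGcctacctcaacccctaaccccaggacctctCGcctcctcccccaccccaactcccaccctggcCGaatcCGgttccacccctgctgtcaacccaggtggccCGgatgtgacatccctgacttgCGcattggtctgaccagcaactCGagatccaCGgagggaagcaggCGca
GTSF1: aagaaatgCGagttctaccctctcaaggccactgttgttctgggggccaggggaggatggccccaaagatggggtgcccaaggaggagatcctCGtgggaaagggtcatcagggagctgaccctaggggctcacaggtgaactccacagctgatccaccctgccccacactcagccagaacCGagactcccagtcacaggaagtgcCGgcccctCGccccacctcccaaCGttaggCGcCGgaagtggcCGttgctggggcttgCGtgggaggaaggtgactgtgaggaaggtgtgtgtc
GJA1: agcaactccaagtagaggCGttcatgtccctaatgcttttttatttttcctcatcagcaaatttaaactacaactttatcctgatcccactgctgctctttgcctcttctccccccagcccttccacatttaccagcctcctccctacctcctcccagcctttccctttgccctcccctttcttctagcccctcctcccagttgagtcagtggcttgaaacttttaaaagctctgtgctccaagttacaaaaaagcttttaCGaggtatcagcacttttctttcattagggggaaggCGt

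Over the 11212 tested genes with such a window, the median ratio of observed to expected CG pairs was 0.817. It was 0.522 in the 122 genes that rose at least 2-fold in HNT-34 with no call in AML-193 and a called difference, and 0.709 in the 123 genes of the reverse kind. Genes that rose at least 2-fold in both lines (33 with a window) had a median of 0.518. Genes that fell at least 2-fold in HNT-34 alone (56) had 0.596 and those that fell in AML-193 alone (55) 0.793. Windows with few CG pairs were therefore common among genes that rose in HNT-34, but also among those that fell there. The shares of windows with a ratio under 0.4 were 43.4% and 39.3% in these sets and 16.3% over all windows. These are descriptions of reference sequence, and methylation was not analysed here.

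A called rise in one line and a called fall in the other, with the difference called, was found at 628 genes (4.47%), 304 up in AML-193 and down in HNT-34 and 324 the reverse. Ranked by the smaller of the 2 effects, CLEC7A, the gene of the fungal receptor dectin-1, was the most opposed of the former. Its signal was 6.15 and 5.85 with vehicle and 7.67 and 7.64 with AZA in AML-193, and 10.2 and 10.1 with vehicle and 7.75 and 7.73 with AZA in HNT-34. The lines began apart and had about the same level with AZA, and the difference was 4.04 ± 0.20 (2.25 to 4.08 over the 3 bright probe sets). ITGAM, the gene of the CD11b integrin of monocytes and granulocytes, diverged instead, from 10.6 on both arrays to 11.8 and 11.7 in AML-193 and from 9.46 and 9.52 to 7.85 and 7.72 in HNT-34 (2.82 ± 0.11).

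GPAT3, an enzyme of triglyceride synthesis, rose by 2.29 in AML-193 and fell by 1.05 in HNT-34. The endocytic adaptor HIP1 rose by 1.39 and fell by 1.47, the membrane protein EMP1 rose by 2.18 and fell by 1.14, the Ral exchange factor family member RGL4 rose by 1.39 and fell by 1.10, and the adhesion molecule NINJ2 rose by 1.01 and fell by 1.01. APOL4, an apolipoprotein L gene, rose by 1.89 and fell by 1.49 on its brightest probe set, while its bright probe sets spanned differences of 0.11 to 3.38. The difference was called with the covariate for all 8 of these genes, with NINJ2 the weakest (1.24, limma adjusted p = 0.018). In that fit the rise of NINJ2 in AML-193 was not called (0.15, limma adjusted p = 0.82), and the rise of the other 7 was.

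GJA1, the gene of the gap junction protein connexin 43, was the most opposed in the reverse direction after XAF1. It went from 7.05 and 7.53 to 6.15 and 6.11 in AML-193 and from 4.40 and 4.33 to 9.22 and 9.15 in HNT-34. The line with the lower signal under vehicle thus had the higher signal under AZA, and the difference was -5.98 ± 0.21. XAF1, an interferon-induced apoptosis gene, went from 9.70 and 9.41 to 8.25 on both arrays in AML-193 and from 5.03 and 5.06 to 6.24 and 6.38 in HNT-34 (-2.57 ± 0.21). PRKAR2B, which encodes a regulatory subunit of protein kinase A, fell from 9.71 and 9.73 to 8.82 and 8.60 in AML-193 and rose from 4.74 and 4.64 to 8.22 and 8.17 in HNT-34 (-4.52 ± 0.13). ELOVL7, a fatty acid elongase, CCDC26, a long noncoding RNA gene, RAB27B, a secretory GTPase, and MLLT11 had differences of -2.99, -2.47, -2.18 and -1.93. With the covariate these differences were called, but the AML-193 values of XAF1 (-0.68, limma adjusted p = 0.24), RAB27B (-1.23, limma adjusted p = 0.18) and MLLT11 (-0.89, limma adjusted p = 0.26) were not.

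With the covariate only 56 genes were called in both lines in opposite directions with a called difference, 47 of them among the 628. Calls within AML-193 went from 5751 to 373 with the covariate, and those within HNT-34 from 4245 to 4558. Without the second HNT-34 AZA array the 628 became 400.

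A change in the same direction in both lines was more common, at 1435 genes (10.2%), 697 up and 738 down, and at 1071 of them no difference was called. Without the second HNT-34 vehicle array the 1435 became 945, and with the covariate 158. PPBP, which encodes a platelet chemokine precursor, rose in both lines, from 6.30 and 6.37 to 11.1 and 11.2 in AML-193 and from 4.79 and 5.52 to 10.7 on both arrays in HNT-34. The groups were apart in each line, and the difference of -0.70 ± 0.27 missed the call (limma adjusted p = 0.066). NFE4, a regulator of fetal globin genes, rose by 2.66 and 3.25, MAGEB2, a cancer-testis gene, by 2.64 and 3.02, and FCER1G, the shared signalling chain of Fc receptors, by 2.18 and 2.38. The transcription factor CREB5, the germline acyltransferase GPAT2, the G protein regulator RGS2 and the motor MYO5C completed this set, with rises of 1.40 to 1.59 in AML-193 and 1.40 to 1.85 in HNT-34.

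Of the 8 shared falls named, 4 are genes of amino acid and translation control. SESN2, a leucine sensor of the mTORC1 pathway, fell by 1.47 in AML-193 and fell by 1.44 in HNT-34, and AARS1, the alanyl-tRNA synthetase, fell by 1.33 and fell by 1.34. SLC7A5, the main leucine importer, fell by 1.22 and fell by 1.28, and EIF4EBP1, a repressor of translation under mTORC1, fell by 1.03 and fell by 1.06. TMEM268, RCN1, OSCAR and the linker histone gene H1-10 had AZA minus vehicle values of -1.45, -1.28, -1.07 and -0.95 in AML-193 and -1.50, -1.12, -1.14 and -0.98 in HNT-34. For AARS1 the difference was within 0.01 of 0 with a standard error of 0.09. For SESN2 it ran from -0.65 to -0.03 over its 2 bright probe sets, so the falls were not equal on both.

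Cholesterol synthesis had the largest share of called members in one direction among the lists with at least 10 tested genes. Cells make cholesterol from acetyl-CoA through mevalonate and squalene, and the enzymes are controlled together by SREBF2, which is released from the membrane when sterols are low, while INSIG1 holds it back. Of 25 listed genes 19 were tested, and the other 6 had no probe set with a single gene. This count and every list count below are to be read beside the shares of all genes. Those were 15.6% higher and 15.9% lower, or 4.46% and 4.97% with the covariate. The difference was lower in AML-193 for 16 of the 19 and higher for 1, beside 15.9% and 15.6% of all genes, with a median of -1.01 beside 0.01 over all genes. In HNT-34 15 rose and 0 fell (median 0.68), and in AML-193 1 rose and 10 fell (median -0.43). In 9 the fall in AML-193 and the rise in HNT-34 were both called. With the covariate the difference was lower for 14 and higher for 0, with a median of -1.19, while within AML-193 2 genes fell and 0 rose (median -0.51).

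HMGCS1, the enzyme that makes HMG-CoA, had log2 signals of 9.52 and 9.31 with vehicle and 8.52 and 8.63 with AZA in AML-193, and 8.12 and 8.04 with vehicle and 9.64 and 9.58 with AZA in HNT-34. The order of the lines turned with AZA, and the difference was -2.37 ± 0.12 (limma adjusted p = 2.5e-08, and -2.22 with the covariate). With the covariate its AML-193 value was -0.68 and not called (limma adjusted p = 0.091). MSMO1, the sterol C4 methyl oxidase, went from 12.0 and 11.8 to 10.9 on both arrays in AML-193 and from 9.71 and 9.84 to 10.9 and 10.8 in HNT-34, so that the lines met (-2.07 ± 0.11). DHCR7, the last enzyme of one branch, did likewise, from 11.5 and 11.6 to 10.8 and 10.6 in AML-193 and from 9.66 and 9.60 to 10.6 and 10.5 in HNT-34 (-1.78 ± 0.13). LSS, the enzyme that closes the sterol rings, had -1.71 ± 0.15. Over the bright probe sets LSS ranged from -1.71 to -0.57 and DHCR7 from -1.78 to -0.62. PMVK, a mevalonate pathway kinase named here after its value was seen, was the member with the opposite difference, 0.87 ± 0.14, and its call was lost with the covariate (0.38, limma adjusted p = 0.13).

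**Figure D2:**
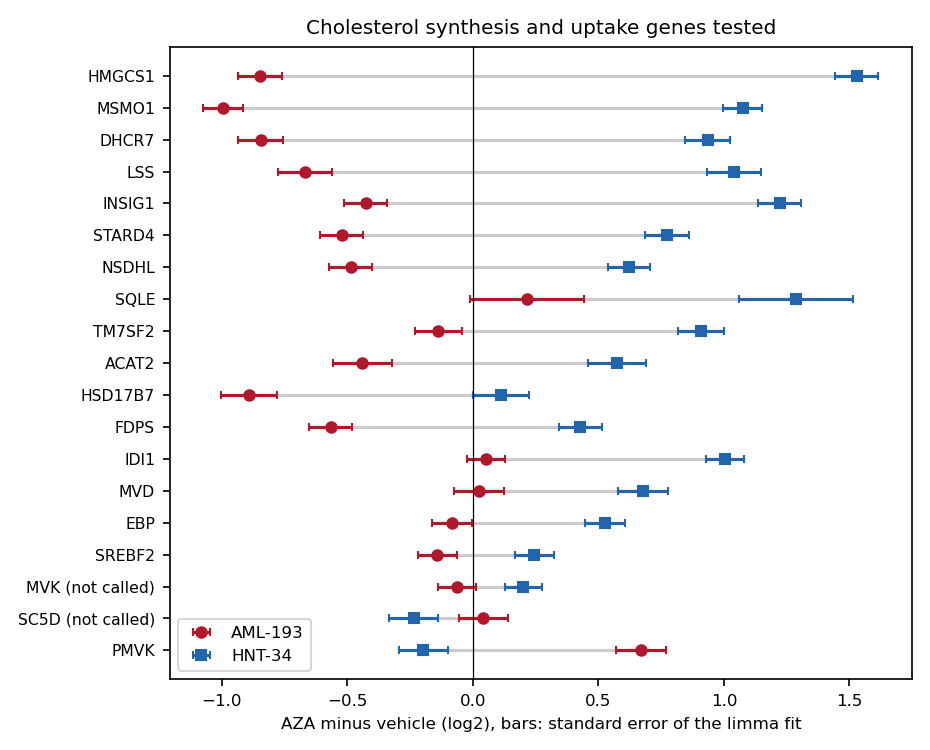
AZA minus vehicle (log2) in AML-193 (red circles) and HNT-34 (blue squares) for the 19 cholesterol genes tested, ordered by the difference, with bars for the standard error of the limma fit (2 arrays per group). For 16 genes the HNT-34 value lies to the right of the AML-193 value with a called difference, PMVK lies the other way, and MVK and SC5D were not called.

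The start-site windows of HMGCS1, MSMO1 and DHCR7 are shown for the CCAAT box, the letters bound by the factor NF-Y, which is known to act beside SREBF2 at such genes. They are RefSeq windows of GRCh38.p14 on the gene's strand, at chr5:43313363-43313662, minus strand, at chr4:165327419-165327718, plus strand and at chr11:71448344-71448643, minus strand. CCAAT, searched on both strands (ATTGG on the other), is in capitals, and occurs 2, 4 and 2 times.
HMGCS1: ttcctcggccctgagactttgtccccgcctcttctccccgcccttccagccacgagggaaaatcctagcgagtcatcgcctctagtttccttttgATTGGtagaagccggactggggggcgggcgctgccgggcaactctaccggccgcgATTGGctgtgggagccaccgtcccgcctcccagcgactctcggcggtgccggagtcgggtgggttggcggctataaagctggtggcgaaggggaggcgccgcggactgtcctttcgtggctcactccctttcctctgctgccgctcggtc
MSMO1: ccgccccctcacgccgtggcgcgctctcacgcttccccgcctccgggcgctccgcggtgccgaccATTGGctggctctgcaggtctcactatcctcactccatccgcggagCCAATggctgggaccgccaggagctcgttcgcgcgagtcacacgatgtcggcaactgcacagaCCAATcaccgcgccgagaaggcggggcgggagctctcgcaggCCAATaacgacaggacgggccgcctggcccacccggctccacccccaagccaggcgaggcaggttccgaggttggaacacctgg
DHCR7: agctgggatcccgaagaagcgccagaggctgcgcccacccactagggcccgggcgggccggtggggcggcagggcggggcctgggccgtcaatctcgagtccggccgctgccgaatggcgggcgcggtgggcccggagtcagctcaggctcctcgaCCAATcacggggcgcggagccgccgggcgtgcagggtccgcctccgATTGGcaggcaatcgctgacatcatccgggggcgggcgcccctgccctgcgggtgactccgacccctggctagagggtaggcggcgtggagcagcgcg

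CCAAT on either strand was in the windows of 15 of the 17 tested cholesterol genes with one (88.2%), beside 36.3% of all 11212 windows. TCACNCCAC, a form of the sterol response element also searched on both strands, was in 1 of the 17 (5.88%) and in 1.08% of all windows. The 2 motifs can overlap by an end base only. The matches describe letters in these windows, not bound sites.

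Some fatty acid and sterol-efflux genes had lower differences in AML-193 too. Of 12 fatty acid synthesis and desaturation genes tested out of 17, 6 had a lower difference in AML-193 and 0 a higher one (median -0.36), and 7 fell in AML-193 against 3 in HNT-34. SCD, the stearoyl-CoA desaturase, went from 12.2 on both arrays to 10.8 on both in AML-193 and from 10.9 and 11.2 to 10.99 on both in HNT-34 (-1.34 ± 0.16, with -1.34 to -0.53 over bright probe sets). SREBF1, the fatty acid counterpart of SREBF2, fell by 1.62 in AML-193 and fell by 0.52 in HNT-34 (-1.10 ± 0.16), and this call was lost with the covariate (-0.75, limma adjusted p = 0.072). FADS2, a desaturase, had -1.09 ± 0.15 and PNPLA3, a lipid droplet acyl hydrolase, -0.86 ± 0.16, the latter not called with the covariate (-0.94, limma adjusted p = 0.056). Of 8 tested targets of the liver X receptor, which answers to oxysterols, 4 were lower and 0 higher in AML-193. SREBF1 is on both lists and is counted in each. APOC1, another of the 4, had -0.55 ± 0.13, and its call was lost with the covariate (-0.10, limma adjusted p = 0.72). ABCA1, the cholesterol exporter, fell by 1.32 in AML-193, with -1.51 ± 0.18 for the difference, and MYLIP, which degrades the LDL receptor, fell by 0.93 (-1.15 ± 0.12). In the covariate fit 2 fatty acid genes were lower and 1 higher, and 2 receptor targets lower, and 3 and 2 genes of these lists fell in AML-193.

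Most genes of the ATF4 amino acid response fell in each line, many by different amounts. ATF4 is the transcription factor that cells use when amino acids are short or translation is stressed, and its targets include amino acid importers, synthesis enzymes and tRNA synthetases. Of 33 tested genes out of 36, 25 fell and 4 rose in AML-193 (median -0.65), and 24 fell and 1 rose in HNT-34 (median -1.19). The difference was called for 26, 17 higher and 9 lower in AML-193, with a median of 0.50. With the covariate 11 were higher and 4 lower, and 16 fell and 0 rose in AML-193.

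Individual members went far apart. CTH, the enzyme that makes cysteine from cystathionine, had signals of 10.6 and 10.5 with vehicle and 7.38 and 7.61 with AZA in AML-193, and between 8.69 and 8.86 on the 4 HNT-34 arrays. Its difference was -3.20 ± 0.13 (-3.16 with the covariate). PHGDH, the entry enzyme of serine synthesis, did the reverse, with 7.55 and 7.82 then 7.83 and 8.29 in AML-193 and 11.9 and 11.8 then 9.24 and 9.17 in HNT-34 (3.03 ± 0.18). INHBE, an activin family gene induced by this pathway, went from 9.85 and 9.89 to 6.31 and 6.07 in HNT-34 and was below the array median in AML-193 (3.13 ± 0.19). SLC7A11, the cystine importer, fell by 1.63 in AML-193 and fell by 3.17 in HNT-34 (1.54 ± 0.14). TGATGNAA, a form of the element that ATF4 binds with its partners, was searched on both strands and was in 4 of the 28 windows of tested members (14.3%) and in 1.91% of all windows.

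Of 17 tested tRNA synthetase genes, 11 fell and 2 rose in AML-193 and 12 fell and 1 rose in HNT-34, and the difference was higher for 5 and lower for 4 (median 0.04), or 2 and 1 with the covariate. WARS1, the tryptophanyl enzyme, fell by 1.14 and fell by 2.36 (difference 1.22 ± 0.10). FARSA rose by 1.08 in AML-193, with a difference of 0.96 ± 0.21 that was not called with the covariate. TARS1 had -0.53 ± 0.15, not called without any of 4 single arrays (limma adjusted p of 0.056 to 0.066). CARS1 had -0.54 ± 0.11 on its brightest probe set and values of both signs over its bright probe sets. The call of CARS1 was also lost with the covariate (-0.32, limma adjusted p = 0.27).

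Most markers of monocytes and macrophages rose in AML-193. Of 46 listed genes 36 were tested, and 24 rose and 3 fell in AML-193 (median 0.98) while 5 rose and 5 fell in HNT-34 (median -0.01). The difference was higher in AML-193 for 21 and lower for 4, with a median of 0.96, and for 17 and 3 with the covariate, where 11 rose and 0 fell in AML-193. Without the filter on dim genes the counts were the same and the median was 0.59. FABP4 and MRC1, both on this list, were at or above the array median only on the AML-193 AZA arrays. They passed the filter through that rise alone, so the count of rises in AML-193 rests in part on the filter. The 4 lower members, named after their values were seen, were VCAN, LYZ, the Fc receptor gene FCGR2A and the signalling adaptor gene TYROBP, and TYROBP rose in both lines, by 1.73 in AML-193 and 3.22 in HNT-34. Genes of the list at or above the array median numbered 22 of 42 with vehicle and 34 with AZA in AML-193, and 20 and 21 in HNT-34. In bulk RNA, more cells of a type and more RNA per cell cannot be told apart.

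MRC1, the macrophage mannose receptor, had signals of 5.57 and 5.58 with vehicle and 8.77 and 8.65 with AZA in AML-193 and between 5.20 and 5.50 in HNT-34 (3.28 ± 0.15). CD14 had 5.80 and 5.95, then 7.42 and 7.63 in AML-193, and between 5.46 and 6.08 in HNT-34. Among granulocyte genes the difference was higher for 9 and lower for 9 of 31 tested out of 38 (median -0.06). These were 29.0% each way, beside 15.6% and 15.9% of all genes, or 7 and 5 genes with the covariate. The members named, S100P, ELANE, MPO and CTSG, had the largest called differences in size, all of them higher, while the list was evenly split. MPO, the myeloperoxidase of primary granules, went from 10.6 on both arrays to 13.9 and 13.5 in AML-193 and stayed between 5.80 and 5.996 in HNT-34 (3.14 ± 0.20). CTSG, the granule protease cathepsin G, went from 10.5 and 10.4 to 7.67 and 7.61 in HNT-34 and from 12.6 and 12.9 to 13.2 on both arrays in AML-193 (3.27 ± 0.13). MPO and CTSG belong to the same granule, and the former differed by a rise in AML-193, the latter mainly by a fall in HNT-34.

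Most megakaryocyte markers rose in HNT-34, as did some erythroid markers. Of 22 tested megakaryocyte and platelet genes out of 26, 17 rose and 0 fell in HNT-34 (median 0.84), and 6 rose and 3 fell in AML-193 (median 0.12). The difference was lower in AML-193 for 12 and higher for 1, with a median of -0.62, and for 6 and 1 with the covariate. F2RL2, also on this list, was at or above the array median only on the HNT-34 AZA arrays. It passed the filter through that rise alone, so the count of rises rests in part on the filter. CLEC1B, the podoplanin receptor of platelets, went from 6.19 and 6.54 to 9.83 and 9.996 in HNT-34 and lay between 6.28 and 6.63 in AML-193 (-3.35 ± 0.19). ITGA2B, the platelet integrin CD41, went from 11.6 and 11.8 to 12.9 and 12.8 in HNT-34 (-1.49 ± 0.18), and F2R, the main thrombin receptor, had -1.82 ± 0.32. The member in the other direction, named after its value was seen, was PECAM1, an adhesion gene that monocytes also express (0.69). PPBP is also on this list and, as given above, rose in both lines.

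Of 20 tested erythroid genes out of 31, 9 rose and 0 fell in HNT-34 (median 0.24), and the difference was lower in AML-193 for 9 and higher for 0 (median -0.08), or 6 and 0 with the covariate. RHAG, a component of the Rhesus complex of red cells, went from 8.53 and 8.02 to 12.0 on both arrays in HNT-34 and lay between 6.80 and 7.21 in AML-193 (-3.62 ± 0.22). GATA1, the master transcription factor of both lineages, went from 7.96 and 7.99 to 10.4 and 10.3 in HNT-34 and lay between 7.98 and 8.16 in AML-193 (-2.43 ± 0.11). The globin genes HBD and HBE1 rose by 1.87 each in HNT-34 (-1.88 ± 0.13 and -1.83 ± 0.18). HBE1 was at or above the array median only on the HNT-34 AZA arrays. It passed the filter through that rise alone, so the erythroid count of rises also rests in part on the filter. Of the 17 tested stem and progenitor genes, 5 were higher and 3 lower in AML-193, with the same counts in the covariate fit. KIT, the stem cell factor receptor, had 1.68 ± 0.15 with opposite changes, and CD34 fell by 1.25 in HNT-34 (1.34 ± 0.19, and 0.98 with an adjusted p of 0.061 in the covariate fit of limma). ERG, a progenitor transcription factor, had 1.70 ± 0.12, with 0.32 to 1.70 over bright probe sets, and AVP, a hormone gene expressed in stem cells, -1.46 ± 0.11.

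**Figure D3:**
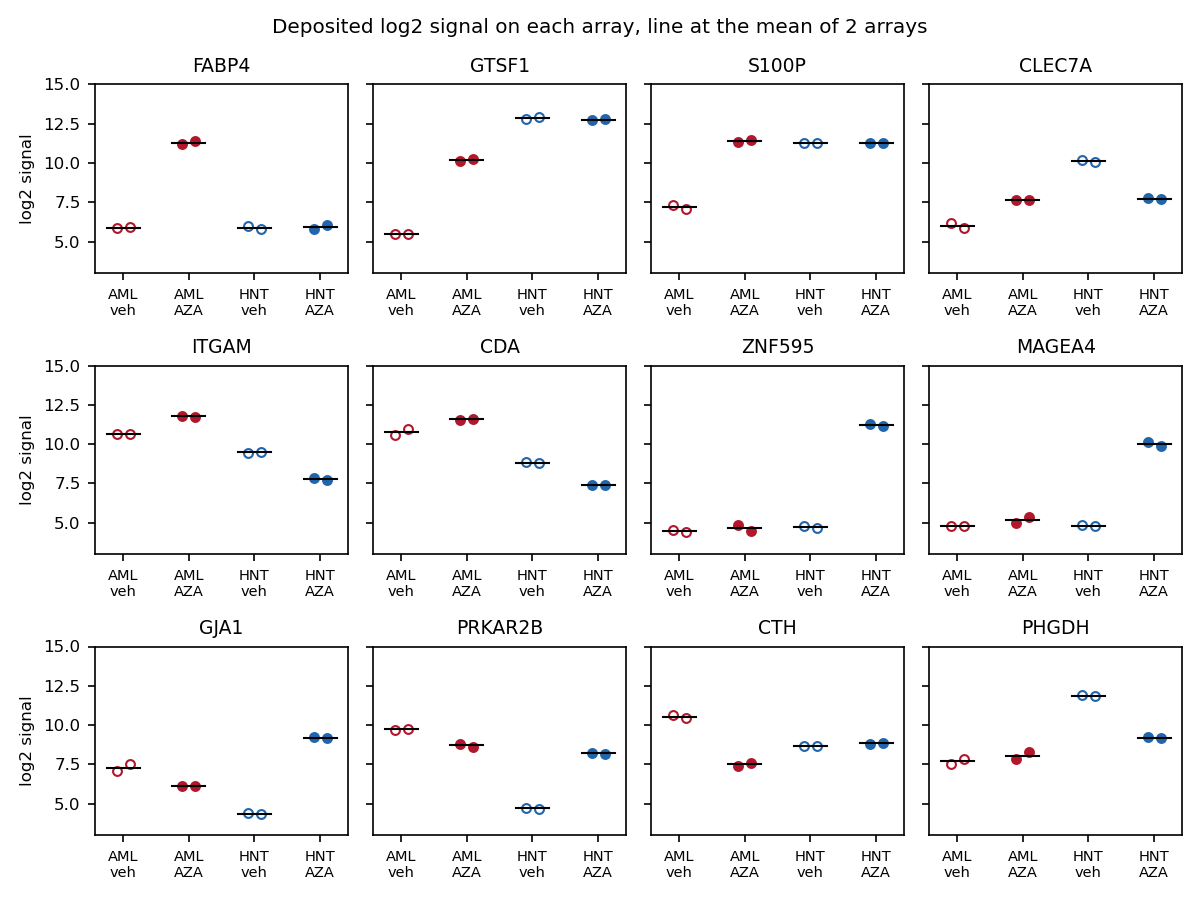
Deposited log2 signal on each array for 12 genes, with AML-193 in red and HNT-34 in blue, open circles for vehicle, filled circles for AZA and a line at the mean of the 2 arrays. FABP4 is bright only in AML-193 with AZA, ZNF595 and MAGEA4 only in HNT-34 with AZA, and CLEC7A reaches about 7.7 in both lines with AZA from opposite sides.

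Part of the interferon-stimulated genes rose in HNT-34, and part fell in AML-193. These genes answer to interferon, which cells can make when double-stranded RNA appears. Of 53 tested genes out of 58, 22 rose and 8 fell in HNT-34, and 1 rose and 17 fell in AML-193. The difference was lower in AML-193 for 25 and higher for 4 (median -0.36), and for 14 and 0 with the covariate, where 4 fell and 1 rose in AML-193. ISG15, a ubiquitin-like protein gene, had 11.5 and 11.4, then 11.1 on both arrays in AML-193, and 10.5 on both, then 12.1 on both in HNT-34 (-1.92 ± 0.11). IFI44L went from 8.82 and 8.91 to 7.66 and 7.76 in AML-193 and from 5.91 and 6.02 to 6.63 and 6.80 in HNT-34 (-1.90 ± 0.18). IFI27 rose by 1.90 in HNT-34 (-1.62 ± 0.19). The 4 members in the other direction, named after their values were seen, were BST2, LGALS3BP, PLSCR1 and CXCL10.

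Among 19 tested cancer-testis and germline genes out of 51 listed, 12 rose and 0 fell in HNT-34, and 9 rose and 1 fell in AML-193. Of the 32 others, 8 had no probe set with a single gene and the rest were dim. MAGEA4 and MAGEA1 were at or above the array median only on the HNT-34 AZA arrays. They passed the filter through that rise alone, so the count of rises here also rests in part on the filter. The difference was lower in AML-193 for 7 and higher for 1, with the same counts in the covariate fit. Without the filter on dim genes 11 were lower and 1 higher, and with the stricter filter 1 and 1. MAGEA6 and MAGEA1, on the X chromosome beside MAGEA4, rose by 2.84 and 2.68 in HNT-34 (-2.58 ± 0.24 and -2.42 ± 0.18), where near-identical MAGEA copies may share signal. GTSF1 was the member in the other direction. The germline genes that rose strongly included GTSF1 in AML-193, MAGEA4 in HNT-34 and MAGEB2 in both. GTSF1 was already at 12.8 and 12.96 in HNT-34 with vehicle, so that line did not start from a low level of it.

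Among genes of DNA methylation and of the handling of the drug itself, calls went both ways. Of 23 tested methylation genes out of 27, 3 were higher and 5 lower in AML-193, and 2 and 0 with the covariate. DNMT1, the maintenance methyltransferase that AZA traps, had 11.4 and 11.5, then 11.2 on both arrays in AML-193, and 11.5 and 11.6, then 11.1 on both in HNT-34, with a difference of 0.25 ± 0.13 that was not called. DNMT3B, a de novo methyltransferase, had 9.69 and 9.50, then 8.49 and 8.24 in AML-193, and between 12.1 and 12.3 in HNT-34 (-1.22 ± 0.17, and -0.73 with an adjusted p of 0.059 in the covariate fit of limma). UHRF1, which brings DNMT1 to replicating DNA, fell by 0.85 in HNT-34 (0.63 ± 0.11), and CDCA7, a partner of the remodeller HELLS, fell by 1.06 there (1.19 ± 0.11, with probe sets of both signs). DNMT3A had -0.27 ± 0.10 and the methylcytosine oxidases TET1, TET2 and TET3 had 0.26 ± 0.15, 0.56 ± 0.22 and 0.41 ± 0.16, none of them called, and USP7, which stabilises DNMT1, had 0.53 ± 0.12. The call of USP7 was lost with the covariate (0.39, limma adjusted p = 0.23) and with probe sets averaged (0.26, limma adjusted p = 0.066), and its bright probe sets ran from -0.05 to 0.53.

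Of 20 tested genes of AZA uptake and metabolism out of 24, 5 were higher (25%) and 3 lower (15%) in AML-193. Over all genes 15.6% were higher and 15.9% lower. With the covariate 1 gene of the list was higher and 0 lower. CDA, the cytidine deaminase that inactivates the drug, had 10.5 and 10.96, then 11.6 on both arrays in AML-193, and 8.86 and 8.79, then 7.36 and 7.40 in HNT-34. It rose in the former line and fell in the latter, and its difference was 2.27 ± 0.30 (1.38 with an adjusted p of 0.052 in the covariate fit of limma, where its AML-193 value was -0.15). CTPS1, which makes CTP, had 1.45 ± 0.18 and SLC29A1, a nucleoside transporter, 1.35 ± 0.31, of which the covariate fit called CTPS1 only. NT5C3A, a pyrimidine nucleotidase, had 0.52 ± 0.12, not called with the covariate (0.32, limma adjusted p = 0.32).

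Of 50 tested replication and E2F genes, 19 were higher and 7 lower in AML-193 (median 0.19), and of 50 mitosis genes 2 were higher and 16 lower (median -0.23). In the covariate fit these became 4 and 1, and 0 and 5. Within AML-193 12 replication and E2F genes rose and 19 fell (median -0.17), and in HNT-34 3 rose and 23 fell (median -0.23). Of the mitosis genes 10 rose and 14 fell in AML-193 (median -0.10), and 17 rose and 1 fell in HNT-34 (median 0.16). With the covariate 0 replication and E2F genes rose and 1 fell in AML-193, and 0 mitosis genes rose or fell there. RFC1, RFC4 and PRIM1, of the replication machinery, had 1.07 ± 0.17, 0.97 ± 0.12 and 1.05 ± 0.18, and the mitotic kinase genes TTK and BUB1 had -0.85 ± 0.10 and -0.85 ± 0.12. HMMR, a spindle gene, had -0.93 ± 0.13. PLK1, another mitotic kinase gene, had 0.79 ± 0.17 and CCNE2, a cyclin, -0.93 ± 0.19. Over bright probe sets BUB1 ran from -0.85 to 0.22, CCNE2 from -0.93 to 0.23 and HMMR from -0.93 to -0.13. With the probe set of highest variance the calls of BUB1 (-0.57, limma adjusted p = 0.25) and HMMR (-0.13, limma adjusted p = 0.54) were lost. In the covariate fit RFC4, TTK and BUB1 kept their calls. RFC1 (0.46, limma adjusted p = 0.12), PRIM1 (0.44, limma adjusted p = 0.23), HMMR (-0.73, limma adjusted p = 0.051), PLK1 (0.44, limma adjusted p = 0.32) and CCNE2 (-0.51, limma adjusted p = 0.29) lost theirs. Among 31 p53 targets 2 were higher (6.45%) and 7 lower (22.6%), beside 15.6% and 15.9% of all genes. With the covariate 1 was higher and 4 lower. TNFRSF10B, a death receptor for TRAIL, had 2.25 ± 0.15 and DDB2, a DNA repair gene, -1.10 ± 0.12.

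In 4 inflammatory, stress and growth lists the higher differences in AML-193 outnumbered the lower, and in 2 of them this was not so with the covariate. Of 31 TNF and NF-kB targets 12 were higher and 4 lower (8 and 2 with the covariate). CCL7, a monocyte chemokine, went from 6.44 and 6.54 to 9.60 and 9.87 in AML-193 and lay between 5.27 and 5.41 in HNT-34 (3.23 ± 0.16), IER3 had 2.58 ± 0.13 and PTGS2, the inducible cyclooxygenase, -1.56 ± 0.25. Of 27 metallothionein and NRF2 target genes 14 were higher and 4 lower (6 and 3), with PGD, NQO1 and SLC30A1 at 1.48 ± 0.16, 1.46 ± 0.15 and 1.32 ± 0.11. The 4 lower members, named after their values were seen, were the metallothionein genes MT2A, MT1X and MT1H and the reductase gene AKR1C3. Of 25 unfolded protein response genes 11 were higher and 3 lower (1 and 1), and of 33 MYC and ribosome biogenesis genes 12 were higher and 1 lower (1 and 1). ODC1, the polyamine enzyme and MYC target, had 1.39 ± 0.18, and MYC itself 1.02 ± 0.28, which was not called with the covariate (0.29, limma adjusted p = 0.71). For the last 2 lists most calls were absent in the covariate fit, and the part of RNA integrity in them was not tested.

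Of 53 AML surface targets and cytokine receptors 20 were higher and 11 lower in AML-193 (15 and 4 with the covariate). TNFRSF8, the CD30 receptor, went from 10.3 and 10.5 to 8.37 and 8.43 in HNT-34 (2.32 ± 0.21). CD96, a receptor of T, NK and leukaemic cells, fell from 10.1 and 10.2 to 8.55 and 8.32 in AML-193 and rose from 6.41 on both arrays to 6.95 and 6.93 in HNT-34 (-2.26 ± 0.12). CD52, a target of antibody therapy, rose by 2.26 in AML-193 from vehicle arrays of 9.06 and 7.74 that differed widely (2.15 ± 0.38, and 3.73 with the covariate), and CSF2RA, the GM-CSF receptor chain, had 1.74 ± 0.23. Of 39 integrin and adhesion genes 11 were higher (28.2%) and 5 lower (12.8%), beside 15.6% and 15.9% of all genes. With the covariate 8 were higher and 4 lower. ITGB2, the partner chain of ITGAM, had 1.36 ± 0.13 and NCAM1 1.71 ± 0.20.

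Of 33 AP-1 and immediate early genes 7 were higher (21.2%) and 6 lower (18.2%), beside 15.6% and 15.9% of all genes. With the covariate 4 were higher and 3 lower. NR4A2, an orphan nuclear receptor, had -3.31 ± 0.19, JUN 1.60 ± 0.16 and FOSL2 1.93 ± 0.14. Of 413 C2H2 zinc finger genes named ZNF 26 were higher (6.30%) and 98 lower (23.7%) in AML-193 (median -0.13), beside 15.6% and 15.9% of all genes. With the covariate 5 were higher and 19 lower, the latter a smaller share than the 4.97% of all genes that were lower in that fit. The list was mostly of small values besides ZNF595, with ZNF789, ZNF580 and ZNF468 next at -1.54 ± 0.20, -1.30 ± 0.17 and -1.23 ± 0.19. Of 17 tested histone genes out of 42, 0 were higher and 9 lower in AML-193 (0 and 7 with the covariate), and 11 rose and 1 fell in HNT-34. H2BC5 and H2BC12, of histone H2B, had -1.89 ± 0.21 and -0.96 ± 0.11, and histone genes are near-identical copies that may share signal.

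The other lists had few calls or calls in both directions. Over all genes 15.6% were higher and 15.9% lower. Among 22 housekeeping genes 3 were higher and 4 lower (median -0.03), with POLR2A the largest at -0.89 ± 0.16, and none of the 22 was called with the covariate. T and NK cell markers (2 higher and 5 lower of 29), B cell markers (1 and 1 of 11), epithelial markers (1 and 1 of 10) and fibroblast and matrix markers (3 and 4 of 16) had medians between -0.08 and 0.10. With the covariate T and NK cell markers had 1 higher and 3 lower, and B cell markers 0 and 1. Epithelial markers had 0 and 0 in that fit, and fibroblast and matrix markers 2 and 5. S100A6, VIM and MGP of the last list differed by -2.99 ± 0.23, 2.08 ± 0.20 and -3.05 ± 0.11. HLA class I (2 and 5 of 17), HLA class II (2 and 3 of 15), HOX (4 and 3 of 14) and imprinted genes (3 and 2 of 12) were mixed, and PHLDA2, a placental growth restraint gene, stood out among the imprinted at 2.96 ± 0.19. In the covariate fit HLA class I had 0 higher and 2 lower, and HLA class II 0 and 1. HOX genes had 0 and 0 there, and imprinted genes 2 and 1.

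**Figure D4:**
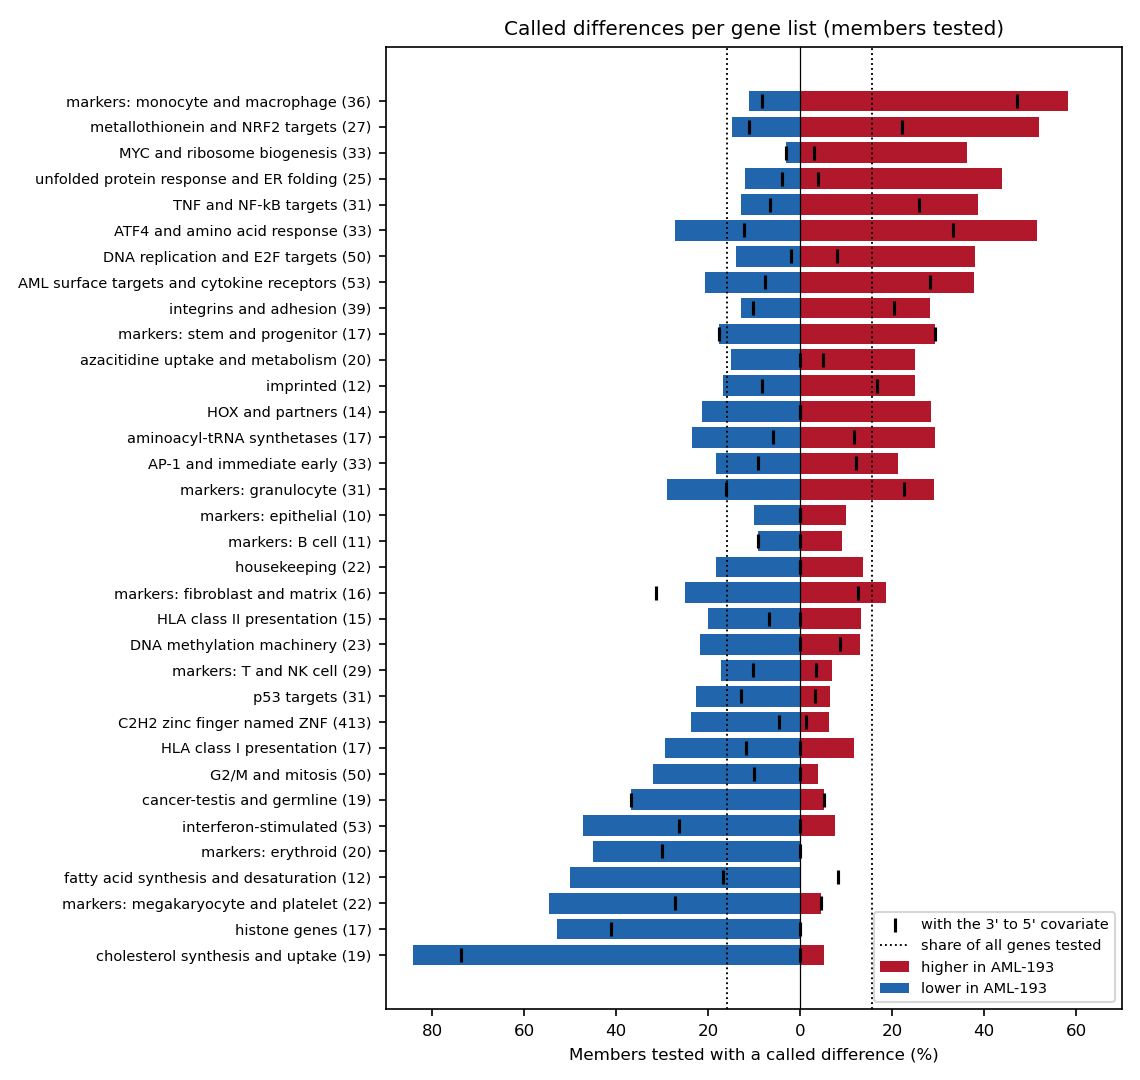
Share of tested members of each gene list with a called difference, higher in AML-193 to the right (red) and lower to the left (blue), for lists with at least 10 tested genes (number in brackets). Dotted lines mark the shares of all genes tested, 15.6% and 15.9%, and black ticks the shares with the 3′ to 5′ covariate. Cholesterol genes reach furthest to the left, and monocyte and macrophage markers furthest to the right.

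In the other lines of the series the leading genes did not all follow either pattern. ZNF595 had AZA minus vehicle values of 3.44 in KG1a and 6.42 in HL60, beside 6.47 in HNT-34 and 0.20 in AML-193. GTSF1 had 2.46 in KG1a and 0.39 in HL60, FABP4 0.08 and 0.06 in KG1a and HL60, MAGEA4 0.14 and 0.60, and GJA1 1.39 and -0.08. HMGCS1 had 0.00 in KG1a and 1.24 in HL60. These values are given side by side, without a test against AML-193 or HNT-34.

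The number of called differences lay between 4126 and 4645 when probe sets were averaged or chosen by variance, when the filter was dropped or made stricter, after renormalization or centring, on the 8 arrays alone, and with an intensity trend. It was between 3250 and 4594 when any single array was left out, and was 1323 with the covariate.

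**Figure D5:**
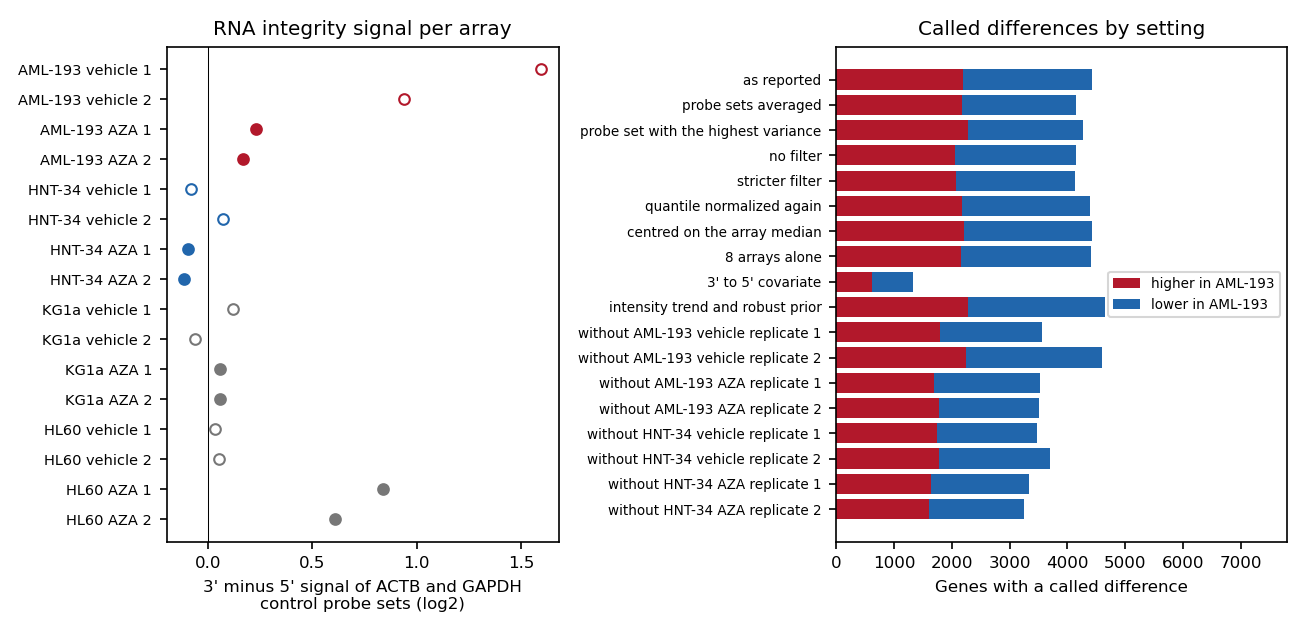
Left: 3′ minus 5′ control signal (ACTB and GAPDH, log2) on each of the 16 arrays, open circles vehicle and filled circles AZA, with AML-193 in red, HNT-34 in blue and the other lines in grey. Right: number of genes with a called difference under each setting, higher (red) and lower (blue) in AML-193. The AML-193 vehicle arrays have the highest signals, 1.59 and 0.939, and the covariate setting has the lowest count, 1323.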

How the data were processed

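The 16 arrays (Affymetrix Human Genome U133 Plus 2.0) cover 4 lines with 2 arms and 2 arrays each. Each deposited value is the signal of a probe set, taken as log2, the scale that RMA gives. The submitters' processing notes name affy and RMA, and versions and the order of steps are not given in the sources used here. All arrays share their quantiles to within 0.00404, with values from 3.26 to 15.3, so the values are treated as normalized and were used as deposited. No detection calls were used, and the number of arrays limits the precision.

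Of 54675 probe sets, 62 are array controls. By the array annotation, 41097 have 1 symbol, 1801 several and 11777 none, and 41043 matched a GRCh38.p14 gene table by identifier. The probe set with the highest mean stood for each of 19775 genes, and 14038 genes at or above the array median on at least 2 arrays were tested. One mean per group was fitted on 16 arrays with limma (3.58.1, R 4.3.3; 8 residual and 4.80 prior degrees of freedom, Benjamini and Hochberg at 0.05). The fit was tested on simulated data.

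The genes named are the 10 largest differences each way among called genes, 8 opposed genes each way, 8 shared rises and 8 shared falls, up to 4 called members per list, and the DNMT, UHRF1 and TET genes. The comparison, the 35 lists and this rule were chosen with earlier results of these data known. Lists are described by counts and medians, with no test. Alternatives were other probe set rules, filters and scalings, the 8 arrays alone, a 3′ to 5′ covariate, an intensity trend, and leaving out each array. Values of lists under further settings were added after seeing the data.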

Additional observations from a re-analysis of the deposited data

Results flagged for a closer look

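The results in this section differed between the lines by the limma test of the difference itself (adjusted p at most 0.05), which is what marked them. At the level of all genes these are the 4423 genes with a called difference and the 628 called in both lines in opposite directions.

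The difference of the responses was positive for FABP4 (5.37), GTSF1 (4.89), S100P (4.22), CLEC7A (4.04), ELANE (3.58), SPP1 (3.58), S100A12 (3.49), MGST1 (3.41), APOL4 (3.38), GPAT3 (3.34), EMP1 (3.32), HIP1 (2.86), ITGAM (2.82), RGL4 (2.49) and NINJ2 (2.02), as log2 differences. Of these, CLEC7A, APOL4, GPAT3, EMP1, HIP1, ITGAM, RGL4 and NINJ2 rose in AML-193 and fell in HNT-34.

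The difference of the responses was negative for ZNF595 (-6.27), GJA1 (-5.98), F2RL2 (-5.07), MAGEA4 (-4.85), SLITRK6 (-4.65), PRKAR2B (-4.52), HGD (-3.91), EGR3 (-3.91), LAT (-3.89), INHBA (-3.73), ELOVL7 (-2.99), XAF1 (-2.57), CCDC26 (-2.47), RAB27B (-2.18), MSMO1 (-2.07) and MLLT11 (-1.93). The sign describes the response to AZA and not which line had the higher level. GJA1, PRKAR2B, ELOVL7, XAF1, CCDC26, RAB27B, MSMO1 and MLLT11 fell in AML-193 and rose in HNT-34. LAT did so too, with a small fall in AML-193 (-0.28). The difference was called with the 3′ to 5′ covariate for all 31 genes named here. In that fit the change within AML-193 was not called for NINJ2 (0.15), XAF1 (-0.68), RAB27B (-1.23), MLLT11 (-0.89) and LAT (-0.02). The opposite changes of these genes were thus not both called in that fit.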

How the results depend on the processing

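No paired analysis was possible because the labels give the arrays no replicate numbers of their own. With the 3′ to 5′ covariate the called differences were 1323, the calls in AML-193 373, the genes opposed 56 and those changed in the same direction 158; of the 186 differences of named genes 145 kept their call status and direction, 39 lost the call and 2 reversed, TFRC (0.021) and TET2 (-0.20). The slope of that covariate rests on few arrays. Leaving out single arrays gave 3250 to 4594 called differences, 4030 to 5636 calls in AML-193, 2892 to 4442 in HNT-34, 400 to 677 opposed and 945 to 1358 shared genes. At least 50% of the tested members were called in one direction in 8 lists, in 2 with no filter, 5 with the stricter filter, 1 with the covariate and 5 to 7 without single arrays. With probe sets averaged CARS1 (0.036) and TFRC (0.16) reversed, and with the probe set of highest variance CARS1 (1.14), HLA-C (0.063), CDCA7 (-0.71), USP7 (-0.049), CCNE2 (0.23) and TFRC (0.49), where probe sets of a gene disagree. The cause of the other changes was not tested. Requantiling, centring, the 8 arrays alone and the trend kept the direction of all 186 and the call of at least 182. Having 2 arrays per group, and signals near the floor, limit what could be seen.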
